A study of Homo sapiens with 4 samples.

Results

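The library described here came from HEK293 cells, a line grown from human embryonic kidney cultures, that carried a stably integrated empty vector. It is 1 of 4 libraries in the study. The other 3 came from lines that express MSI1, SRRM3 or SRRM4 from the same kind of doxycycline-inducible vector. All 4 lines, the empty vector included, received doxycycline at 1 µg/mL for 24 h in tetracycline-free serum, so the empty-vector library shows induced cells without a transgene and not untreated cells. Each group had 1 library of polyA-selected RNA, and nothing here has a replicate check. The empty-vector library was chosen by its label alone, and the other 3 libraries are given only to show how far a level moved between lines. Each line differs in its insert and may differ as a culture, and these cannot be told apart.

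Levels are given as cRPKM, a deposited RPKM value in which reads are scaled by a gene-specific length and by library size, beside the deposited read count. How that length was set is not given. It is called the implied length below and is short for some genes, such as 441 bases for TUBB2A. A gene was called on at 1 cRPKM or more, silent at 3 counts or fewer, and low when it was neither. The empty-vector library held 62083851 counts, and the other 3 held between 60288244 and 63003121. At this depth 1 count is worth 0.0161 CPM (counts scaled to library size) and 3 counts 0.0483 CPM. Intervals are exact Poisson 95% intervals of the count. Reads are not independent molecules, so these intervals cover counting error only. In a bulk library a low level in every cell and a high level in a few cells cannot be told apart.

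HEK293 cells are kept as an epithelial-looking kidney line, yet neurofilament expression has long been described in them. In vertebrates many neuronal genes are held off outside neurons by REST, a zinc-finger repressor that recruits histone deacetylases and demethylases. SRRM3 and SRRM4 are serine/arginine-rich proteins of neurons and photoreceptors that promote the inclusion of very short exons called microexons, and the Musashi proteins MSI1 and MSI2 bind RNA in progenitors and photoreceptors. What a cell expresses before such a regulator is supplied is the background on which the regulator acts.

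A set of 5 promoter windows show the range of sequence found at genes that were on or silent. They were chosen after the values were seen. Each is the 250 bases before a gene's start in RefSeq (GRCh38.p14), 5′ to 3′ on the gene's strand, with every CpG dinucleotide in capitals. The first is INA, a neuronal intermediate filament gene that was on at 12.61 cRPKM, at chr10:103276888-103277137 on the plus strand.
INA: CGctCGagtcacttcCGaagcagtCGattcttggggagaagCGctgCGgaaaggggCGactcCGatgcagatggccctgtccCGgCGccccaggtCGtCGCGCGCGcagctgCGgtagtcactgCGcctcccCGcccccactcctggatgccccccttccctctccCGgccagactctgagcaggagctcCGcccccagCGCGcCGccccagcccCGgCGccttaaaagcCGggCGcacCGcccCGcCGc
SLC32A1, the vesicular transporter of inhibitory neurons, was silent at 3 counts with a window that is as rich in CpG, at chr20:38724236-38724485 on the plus strand.
SLC32A1: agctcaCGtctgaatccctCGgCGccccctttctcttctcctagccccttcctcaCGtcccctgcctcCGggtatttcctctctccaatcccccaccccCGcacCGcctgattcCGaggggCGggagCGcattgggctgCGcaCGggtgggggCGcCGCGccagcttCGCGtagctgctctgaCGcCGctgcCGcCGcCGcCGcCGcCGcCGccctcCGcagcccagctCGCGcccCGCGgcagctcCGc
GNB1, a G protein beta subunit used by rods and by most other cells, was on at 163.10 cRPKM, with its window at chr1:1891088-1891337 on the minus strand.
GNB1: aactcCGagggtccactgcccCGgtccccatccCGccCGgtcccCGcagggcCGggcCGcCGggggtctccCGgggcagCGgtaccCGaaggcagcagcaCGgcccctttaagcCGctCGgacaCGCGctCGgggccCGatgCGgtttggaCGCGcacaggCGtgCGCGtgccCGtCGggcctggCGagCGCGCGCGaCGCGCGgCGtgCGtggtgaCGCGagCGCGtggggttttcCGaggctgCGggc
SAG, the rod arrestin, was silent at 0 counts, with its window at chr2:233307566-233307815 on the plus strand.
SAG: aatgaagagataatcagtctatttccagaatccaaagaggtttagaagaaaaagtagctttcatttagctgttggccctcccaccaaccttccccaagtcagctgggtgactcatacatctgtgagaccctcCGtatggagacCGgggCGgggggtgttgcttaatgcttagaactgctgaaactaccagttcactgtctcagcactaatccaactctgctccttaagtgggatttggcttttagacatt
KRT10, a keratin of the upper epidermis, was on at 11.26 cRPKM with a window that holds no CpG, at chr17:40822615-40822864 on the minus strand.
KRT10: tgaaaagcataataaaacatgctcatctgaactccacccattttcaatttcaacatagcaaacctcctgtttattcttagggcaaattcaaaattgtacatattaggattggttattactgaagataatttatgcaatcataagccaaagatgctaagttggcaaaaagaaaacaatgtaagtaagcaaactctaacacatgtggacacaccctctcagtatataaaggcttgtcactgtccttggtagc

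The INA window holds 30 CpG, the SLC32A1 window 32 and the GNB1 window 42, against 3 for SAG and 0 for KRT10. INA and GNB1 follow the common pattern for genes that were on, and SAG the common pattern for silent genes, while SLC32A1 and KRT10 go against it. Over the 9253 protein-coding genes with a window within 100 bases of the annotated gene start, the median window held 21 CpG for 5683 genes that were on, 12 for 1402 low genes and 3 for 2168 silent genes. An observed-to-expected CpG ratio of at least 0.6 was met by 85.1% of windows of genes that were on, by 48% of those of low genes and by 16.1% of those of silent genes, beside 63.3% of all windows. Among genes that were on the median number of CpG was 21 at 1 to 10 cRPKM, 22 at 10 to 100 and 21 above that. The share with a ratio of at least 0.6 was higher at higher levels, at 79.6%, 88.9% and 91.5% in the same order.

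**Figure D1:**
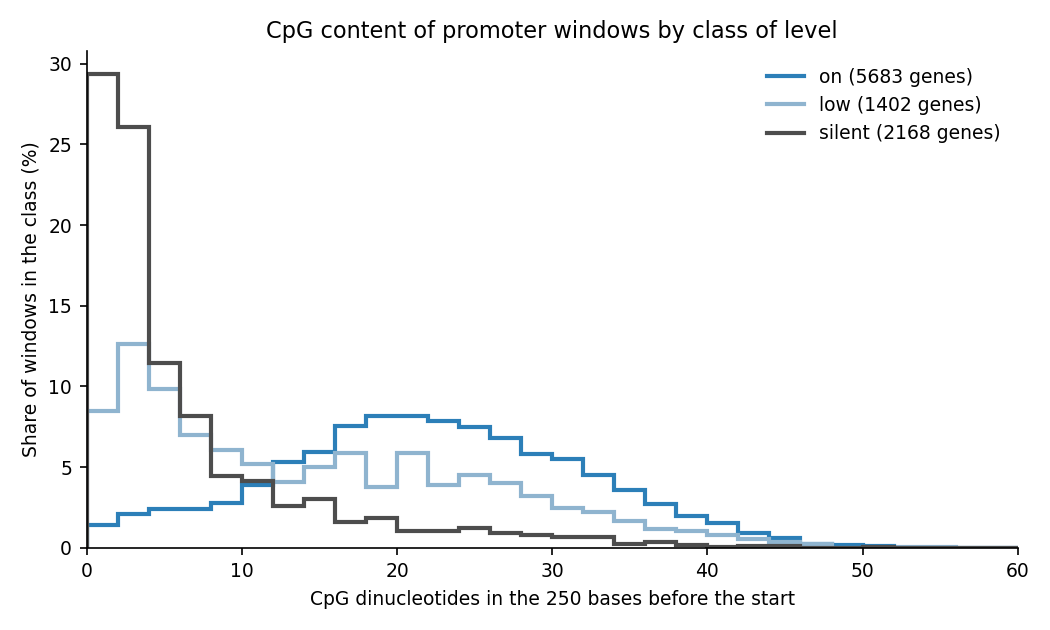
Share of promoter windows (vertical axis, percent of the windows in a class) by number of CpG dinucleotides in the 250 bases before the start (horizontal axis), for genes on, low or silent in the empty-vector library. Windows of silent genes pile up at few CpG, with a median of 3, and those of genes that were on spread around a median of 21.

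A set of 3 short motifs were searched on both strands of these windows. TATAAA, the core of the TATA box, was in 10.3% of all windows, in 5.01% of those of genes that were on and in 23.7% of those of silent genes. GGGCGG, the core of the GC box, was in 56.2% of all windows, in 70.2% for genes that were on and in 21.3% for silent genes. CCAAT was in 36.3% of all windows, in 37.5% for genes that were on, in 31.5% for low genes and in 36% for silent genes. Among genes that were on it was in 35.5% of windows at 1 to 10 cRPKM and in 47.6% at 100 or more. The KRT10 window holds TATAAA and CCAAT but not GGGCGG, and the INA and GNB1 windows hold GGGCGG only. Of the printed silent genes, SAG also holds GGGCGG only, unlike most silent genes, and SLC32A1 holds CCAAT and GGGCGG. A match describes these letters and is not a measured binding site. All of these are shares across genes of 1 library, and genes are not replicates.

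Of 40188 genes with a value, 12613 were on (31.4%) and 21610 were silent (53.8%). Of the 18828 protein-coding genes, 11526 were on (61.2%) and 4093 silent (21.7%), and these shares are the background for each gene list below. Other gene types were mostly silent: 315 of 7120 long intergenic non-coding RNA genes were on (4.42%) and 360 of 5363 antisense genes (6.71%). Protein-coding genes took 99% of all counts. The protein-coding genes that were on had a median of 12.4 cRPKM and 2502 counts. Of them 4931 lay between 1 and 10 cRPKM, 5873 between 10 and 100, and 722 at 100 or more. A total of 2790 protein-coding genes had 0 counts, for which the detection floor was set at 3 counts (0.0483 CPM), and 1906 of these had 0 in all 4 libraries. The library's counts were spread widely, with 1145 genes needed to reach 50% of them and 6011 to reach 90%.

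**Figure D2:**
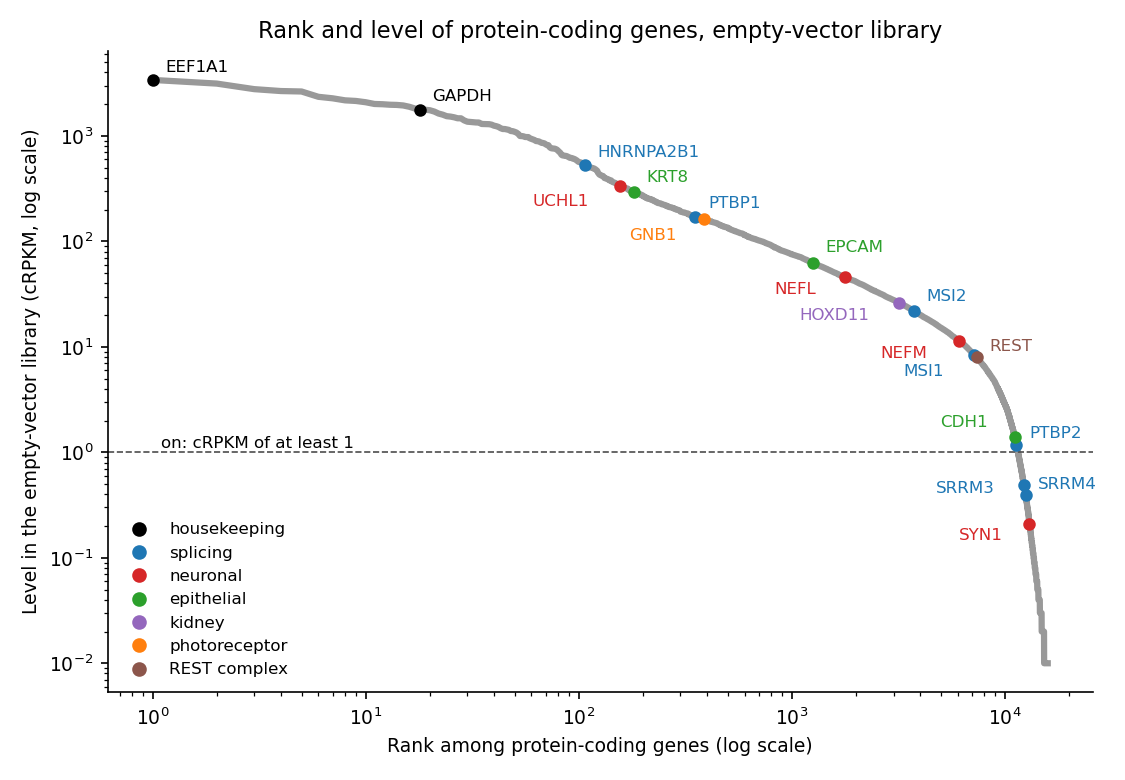
Level in the empty-vector library (vertical axis, cRPKM, log scale) against rank among protein-coding genes (horizontal axis, log scale), with named members as coloured points by list and the level of 1 cRPKM as a dashed line. EEF1A1 stands first at 3392.58 cRPKM, NEFL at rank 1772 and REST at rank 7368, and SRRM3 and SRRM4 lie under the dashed line.

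The most abundant messages encoded the translation machinery. EEF1A1, the elongation factor that brings tRNA to the ribosome, ranked first on both scales, with 3392.58 cRPKM and 916850 counts, which is 1.48% of the library. Its level was 3721.88 cRPKM in the MSI1 library, 3562.32 in SRRM3 and 3275.47 in SRRM4. RPL41 (3131.47 cRPKM), RPS2 (2773.52), RPS4X (2660.86) and RPS18 (2635.07), all ribosomal proteins, followed. Of the 30 genes with the highest cRPKM, 24 encode ribosomal proteins. The other 6 were EEF1A1, its partner EEF1G (1401.48), the cytoplasmic actin ACTG1 (2172.46), the glycolytic enzymes GAPDH (1770.21) and ENO1 (1627.63), and MT-CO2 (1700.08), a mitochondrially encoded subunit of cytochrome oxidase. A symbol pattern that leaves out chromosome Y and symbols with other suffixes, such as a final L, gave 77 cytosolic ribosomal protein genes. All 77 were on, with a median of 926 cRPKM. Together they took 7.18% of the counts but 18.4% of the summed cRPKM, a measure divided by length. Their share of counts was 7.12% to 7.24% over the 4 libraries.

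Ranking by counts moved longer messages up. The chaperone HSP90AA1 came next to EEF1A1 with 277600 counts, then the elongation factor EEF2 with 262164, and the actin-binding filamin FLNA and the splicing factor PRPF8 also entered the first 30. The 30 genes with most counts took 8.32% of the library. PRPF8, the core spliceosome protein, had 109140 counts at 242.61 cRPKM, and HNRNPA2B1, an hnRNP that binds nascent RNA, had 118361 counts at 527.38 cRPKM. These were the splicing proteins among the 30. VIM, the intermediate filament of mesenchymal cells and cultured lines, was also there with 107400 counts at 973.50 cRPKM. Many of the most abundant genes, such as EEF1A1, ACTG1, GAPDH and the ribosomal proteins, have processed pseudogenes or near-identical copies, and their levels depend on how shared reads were assigned.

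The list of genes used by all cells was on almost throughout. Of 87 members 86 were on. In glycolysis the isoforms of most cells were high, with TPI1 at 625.41 cRPKM and PKM at 816.21, and ENO1 stood 81.1 times above ENO2, its neuronal form, in the empty-vector library and 65.4 to 81.1 times over the 4 libraries. The 13 mitochondrially encoded mRNAs were all on. MT-ND6, which lies alone on the light strand of the mitochondrial genome, was at 8.49 cRPKM while the other 12 ranged from 255.55 to 1700.08. These 13 took 0.838% of counts in the empty vector, 1.02% in MSI1, 1.28% in SRRM3 and 0.891% in SRRM4, so the empty vector was the lowest of the 4. MT-CO2, at 1700.08, 2173.64, 2860.05 and 1809.86 cRPKM in the same order, varied most among the 30 genes at the top.

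The label was checked against markers of cells that HEK293 should not contain. None of 36 markers of blood, endothelium, liver and muscle was on, and 26 were silent. All 8 liver markers were silent, ALB among them with 1 count. PTPRC, carried by all leukocytes, had 0 counts and VWF, the endothelial clotting factor, had 0. The highest of the 36 were the endothelial genes ESAM (0.64 cRPKM) and KDR (0.40) with DES, the muscle filament (0.40), none of them on in any library.

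The neuronal list was split between a cytoskeleton that was on and a transmitter apparatus that was not. Of 122 neuronal members 52 were on (42.6%), 41 low and 29 silent (23.8%), beside 61.2% on and 21.7% silent among all protein-coding genes, and 98 of the 122 kept their class in all 4 libraries. The median member stood at 0.305 cRPKM, against 3.76 over all protein-coding genes. These medians hide wide differences between the sub-lists, from 6 of 7 on among intermediate filaments to 1 of 18 among genes of transmitter synthesis and transport. The filament sub-list counts VIM and NES, which are not particular to neurons.

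NEFL, the light neurofilament that starts filament assembly (ENSG00000277586), was on at 45.91 cRPKM from 11494 counts (interval 45.1 to 46.8), at rank 1772 among protein-coding genes. It stood at 49.16 in the MSI1 library, 40.49 in SRRM3 and 39.00 in SRRM4. The 4 libraries lay close together, and the empty vector was neither highest nor lowest. NEFM, the medium neurofilament (ENSG00000104722), was at 11.32 cRPKM (10.9 to 11.8, 2696 counts, rank 6112), with 15.73 in MSI1, 19.44 in SRRM3 and 11.84 in SRRM4. It was lowest in the empty vector. NEFH, the heavy chain of mature axons, was at 2.63 cRPKM and varied between 2.08 and 4.17 over the libraries. The order NEFL, NEFM, NEFH therefore held in all 4 libraries, with NEFL 4.06 times above NEFM in the empty vector and 2.08 to 4.06 times over all 4. INA, which copolymerises with them in the central nervous system, was at 12.61 cRPKM against 20.24 in MSI1, 26.42 in SRRM3 and 22.01 in SRRM4, again lowest in the empty vector. PRPH, the filament of peripheral neurons, was low at 0.43 cRPKM and 84 counts. NES and VIM, filaments of progenitors and mesenchyme rather than of neurons, were at 3.14 and 973.50 cRPKM.

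Of 19 microtubule genes of neurons 15 were on. STMN1, a tubulin-binding protein of dividing and immature cells, led with 369.85 cRPKM, followed by the tubulins TUBB2B (74.57), TUBA1A (71.49) and TUBB2A (55.63), and by DPYSL3 (34.50), a growth-cone protein. Tubulin genes are near-identical in their coding parts, so these levels are less certain than their counts imply, TUBB2A above all, whose implied length is under 500 bases. TUBB3, the class III tubulin used to mark young neurons, was at 12.01 cRPKM, against 15.14 to 21.20 in the other lines. DCX, the microtubule protein of migrating neurons, had 0 counts in all 4 libraries. STMN2, the stathmin of growing axons, had 1 count in the empty vector, 1 in MSI1, 40 in SRRM3 and 9 in SRRM4. Its relative STMN1 was thus among the most abundant messages while STMN2 was silent. GAP43, an axon growth protein, was just under the threshold at 0.77 cRPKM.

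Among 20 general markers of neurons 8 were on. UCHL1, a ubiquitin hydrolase long used as the neuronal marker PGP9.5, stood at 337.62 cRPKM, at rank 156, with 370.83 in MSI1, 333.11 in SRRM3 and 344.85 in SRRM4. It was the highest member of the neuronal list after VIM and STMN1, which are not particular to neurons, and its 4 values lay close together. ENO2 (20.06), the adhesion protein NCAM1 (16.82) and the transcription factor POU3F2 (9.34) followed. ELAVL3 had 1 count, MYT1L, a neuron-specific repressor of other fates, 2 counts, and RBFOX3, the antigen NeuN of mature neurons, was low with 12 counts. SNCB (0.78 cRPKM) and L1CAM (0.69) lay just under the threshold. L1CAM, an axonal adhesion protein, was at 1.37 in MSI1, 2.74 in SRRM3 and 1.86 in SRRM4, so it was off by the rule only in the empty vector.

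**Figure D3:**
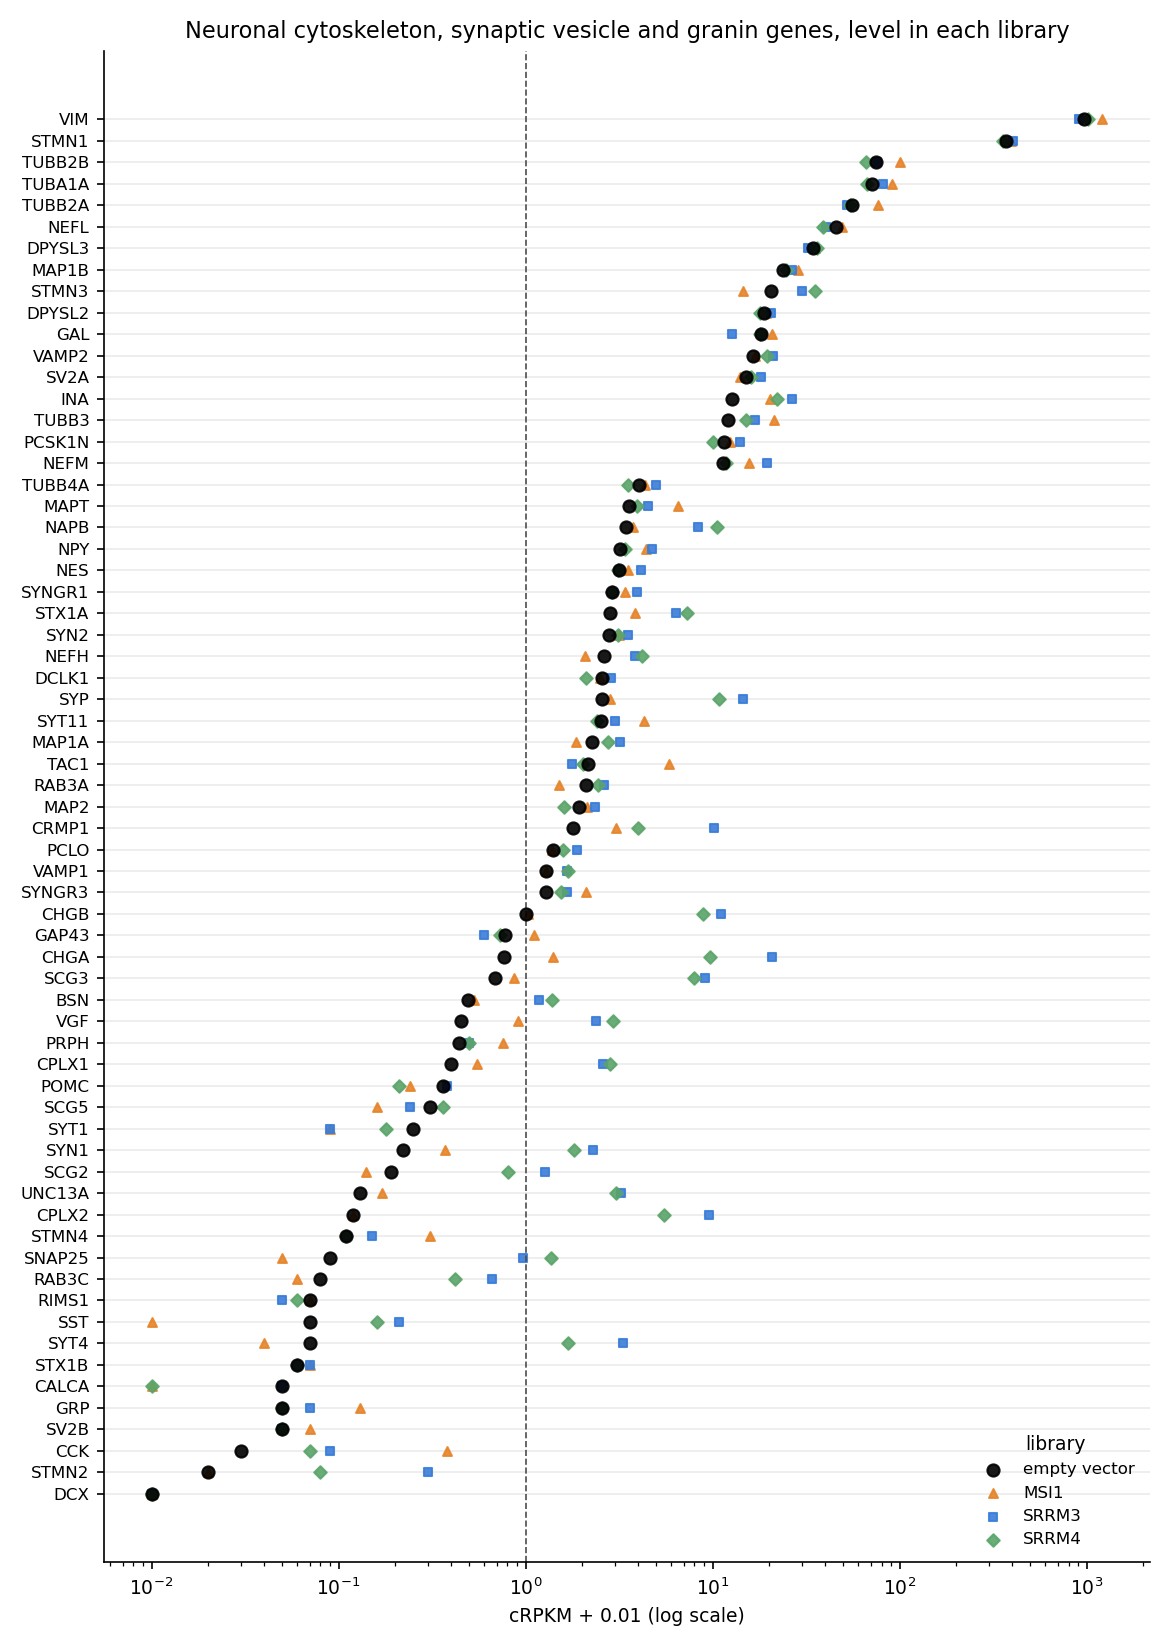
Level of neuronal filament, microtubule, synaptic vesicle and granin genes (horizontal axis, cRPKM plus 0.01, log scale) with 1 row per gene and 1 symbol per library, large black circles for the empty vector. NEFL, STMN1 and VAMP2 lie well above the dashed line at 1 cRPKM with their symbols close together, while CPLX2, UNC13A, SYT4 and CHGA lie under it in the empty vector and over it in the SRRM3 and SRRM4 libraries.

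Of 25 synaptic vesicle and release genes 13 were on, nearly all at a few cRPKM. VAMP2, the vesicle SNARE of most secretory cells, led with 16.44 cRPKM, before SV2A (14.99), NAPB (3.44) and SYNGR1 (2.87). The calcium sensor SYT1 was low at 0.24 cRPKM with 72 counts, and SNAP25, the plasma-membrane SNARE of neurons, was the silent member with 2 counts. Its implied length is only 380.9 bases, so few of its reads could have been counted and its silence is less certain. SYN1, which tethers vesicles, had 42 counts in the empty vector, 73 in MSI1, 467 in SRRM3 and 355 in SRRM4. CPLX2, which clamps vesicle fusion, had 33, 36, 2984 and 1642 counts in the same order. For both, the empty vector and MSI1 libraries were low and the SRRM3 and SRRM4 libraries high, and a baseline call of low held in only 2 of 4 lines. Of 13 postsynaptic genes 7 were on and none was silent, led by DLG3 (10.66 cRPKM), HOMER1 (7.67), NLGN2 (7.36), SHANK3 (2.80) and NRXN3 (1.89). DLG4, the scaffold PSD-95, sat on the threshold at 1.00 cRPKM (0.878 to 1.13), with 0.91, 1.16 and 0.99 in the other libraries.

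The genes that give a neuron its transmitter were the emptiest neuronal group. Of 18 genes of transmitter synthesis and transport 11 were silent and 1 was on. This was GAD1, which makes GABA, at 2.63 cRPKM (2.42 to 2.85, 581 counts), with 2.69, 2.97 and 3.74 in MSI1, SRRM3 and SRRM4. The vesicular glutamate transporter SLC17A6 and the choline transporter SLC5A7 had 0 counts in all 4 libraries. SLC32A1 had 3 counts, TH, which makes the precursor of dopamine, 1 count, and DBH, which makes noradrenaline, 0. The SLC32A1 window printed above is thus an example of a CpG-rich start at a silent gene, and GAD1 was on without the transporter that loads its product into vesicles. Of 20 receptor genes 11 were silent and 2 were on, among them CHRNA7 (2.02 cRPKM), a nicotinic receptor subunit whose reads may be shared with its partial duplicate CHRFAM7A. The AMPA receptor genes GRIA1 and GRIA2 had 0 counts and the NMDA receptor gene GRIN1 had 1.

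REST itself, on chromosome 4 from 56907876 to 56966678 (GENCODE 29, GRCh38, ENSG00000084093), was on at 7.93 cRPKM (7.67 to 8.2, 3520 counts, rank 7368). It stood at 7.74 in MSI1, 7.13 in SRRM3 and 6.50 in SRRM4. Scaled to library size, the empty vector was 1.22 times SRRM4 (counting interval 1.16 to 1.28). Against MSI1 it was 1.03 times (0.978 to 1.07), a gap within counting error. REST thus lay under the median of protein-coding genes that were on. Its corepressors were more abundant. All 18 genes of the REST list were on, with a median of 18.9 cRPKM, and all 18 were on in the 4 libraries. The deacetylase HDAC1 (106.91) and the demethylase KDM1A (101.47) led, with the ATPase SMARCA4 at 73.46, HDAC2 at 47.44 and the methyltransferase EHMT2 at 33.74. RCOR1, the CoREST scaffold, was at 12.08 cRPKM against 2.21 for its relative RCOR2, the lowest of the 18.

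In the neuroendocrine list most processing enzymes were on and most cargo genes were not. Of 42 members 19 were on (45.2%) and 12 silent (28.6%). The share on was 75% for processing enzymes and 33.3% for granins and cargo genes, beside 61.2% of all protein-coding genes. Of 8 prohormone processing enzymes 6 were on: CPE, which trims peptide hormones, at 77.54 cRPKM, PAM, which amidates them, at 56.54, the general convertase FURIN at 47.86, then PCSK6 (24.28), PCSK7 (10.03) and PCSK5 (5.31). The convertases particular to endocrine and neural granules, PCSK1 (0.72) and PCSK2 (0.30), were low. Of 15 granins and cargo genes 5 were on, GAL (18.10), PCSK1N (11.47), NPY (3.19), TAC1 (2.14) and CHGB (1.00). CHGB, a granin of dense-core vesicles, was on only at the threshold with 156 counts in the empty vector and 160 in MSI1, against 1734 in SRRM3 and 1339 in SRRM4. CHGA, the other main granin, was at 0.76 cRPKM, 1.39, 20.81 and 9.70 in the same order. CHGA was lowest in the empty vector, CHGB was nearly equal in the empty vector and MSI1, and neither level is stable across lines.

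Of 12 neuroendocrine transcription factors 6 were on, GATA3 (9.57 cRPKM) and GATA2 (5.29) before NKX2-2 (1.99), PROX1 (1.64), INSM1 (1.60) and HAND2 (1.30). GATA3 and GATA2 also act in kidney and blood development, so they do not mark endocrine cells alone. NEUROD1, NEUROG3 and PHOX2A, factors of endocrine and autonomic lineages, had 0 counts. Of 7 dense-core membrane and release genes CADPS2 (11.28) and SYT9 (7.35) were on, while CADPS, PTPRN2 and SLC18A1 were silent. The steroid-making genes of the adrenal cortex were off as a group. Of 12, those on were SCARB1 (22.72), the lipoprotein receptor, and FDX1 (14.78), an electron carrier, both used in many tissues, and CYP11A1, CYP11B1 and CYP11B2, the mitochondrial steroid hydroxylases, had 0 counts.

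**Figure D4:**
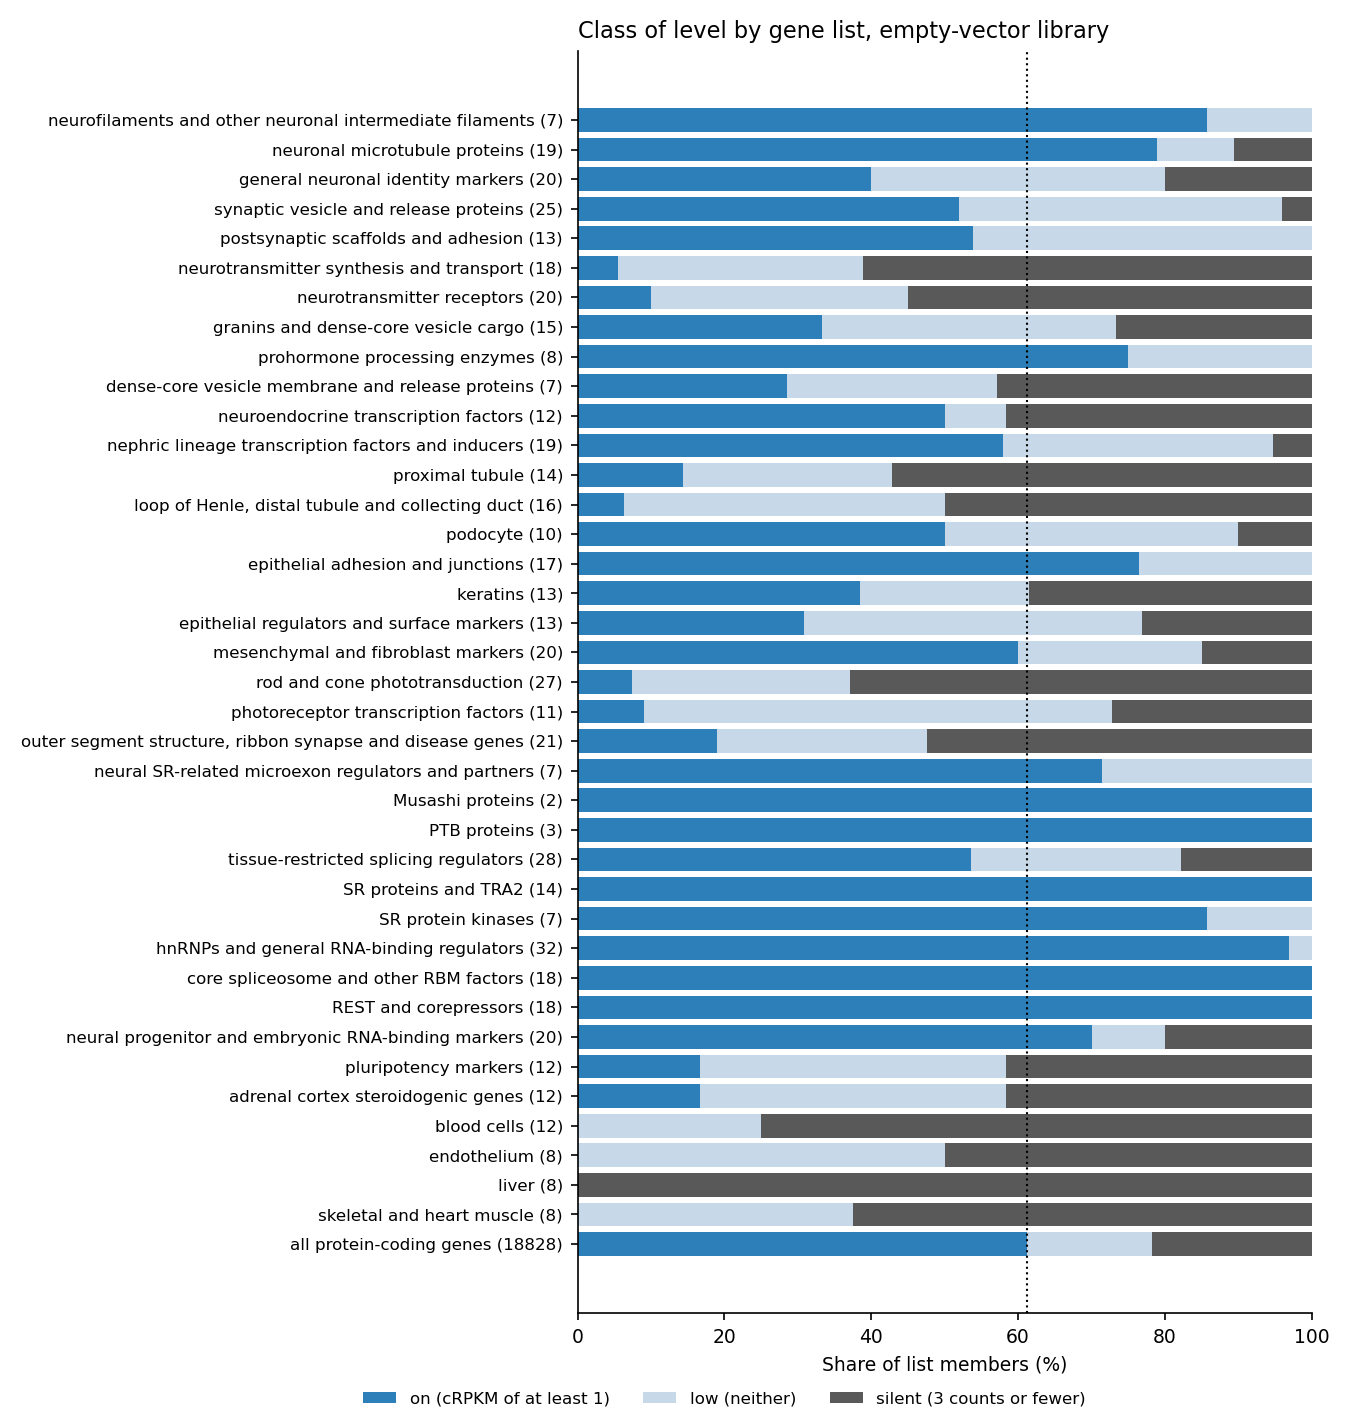
Share of list members (horizontal axis, percent) that were on, low or silent in the empty-vector library, with 1 bar per gene list, the number of members in brackets and the share on among all protein-coding genes as a dotted line at 61.2%. The REST, SR protein and spliceosome lists lie to the right of the line, and transmitter, receptor, tubule and phototransduction lists far to its left.

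Genes of the embryonic kidney were on about as often as all protein-coding genes, and few genes of the working tubule were on. Of 59 kidney members 19 were on (32.2%) and 18 silent (30.5%), beside 61.2% and 21.7% of all protein-coding genes. Of 19 genes of the nephric lineage 11 were on (57.9%). The posterior HOX genes HOXD11 (26.08 cRPKM) and HOXA11 (19.05), which pattern the metanephric mesenchyme, led, followed by SALL1 (9.89) and LHX1 (4.23). HOX genes were on widely in this library (87.2%), so HOXD11 and HOXA11 do not mark kidney alone. EYA1, WT1, CITED1, EMX2, SIX2 and OSR1 were on between 1.40 and 3.40 cRPKM. SALL1 was also at 10.69 cRPKM in MSI1, 11.01 in SRRM3 and 10.38 in SRRM4, and its 4 levels lay close together. PAX2, a factor of the nephric duct and nephron progenitors, was just under the threshold at 0.83 cRPKM (0.721 to 0.951), with 1.05, 1.25 and 0.73 in the other libraries, so its call depends on the line. PAX8, its usual partner, had 4 counts, and WNT9B, the duct signal that starts nephron formation, had 0.

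Of 14 proximal tubule genes 2 were on and 8 silent. GGT1, a brush-border peptidase, was at 5.69 cRPKM, with counts that its pseudogenes may share, and LRP2, the endocytic receptor megalin, at 1.87. The factor HNF4A, which acts in the proximal programme, was silent with 1 count, as were the glucose transporters SLC5A1 and SLC5A2 with 0 and 2 counts. MME, a brush-border peptidase, was just under the threshold at 0.75 cRPKM. Of 16 genes of the loop, distal tubule and collecting duct 8 were silent, and AQP3, a water and glycerol channel also found in skin, was the member on, at 1.74 cRPKM. UMOD, the most abundant protein of normal urine, had 0 counts in all 4 libraries. Of 10 podocyte genes 5 were on, among them CD2AP (28.99), PODXL (11.69), KIRREL1 (6.0) and LMX1B (3.91). NPHS1, the nephrin of the filtration slit, was low with 7 counts.

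The cells carried the simple-epithelial keratins KRT8 and KRT18 and junction genes together with N-cadherin. Of 43 epithelial members 22 were on (51.2%) and 8 silent (18.6%). KRT8 stood at 292.95 cRPKM, with 335.36 in MSI1, 288.97 in SRRM3 and 293.36 in SRRM4. Its partner KRT18 was at 141.53 cRPKM and at 140.08, 126.70 and 146.58 in the other lines in that order, so both were high in every library. KRT19 (85.37), KRT10 (11.26) and KRT17 (2.91) were on too. The keratins of stratified epithelia were thus mixed, since KRT10 and KRT17 belong to them, while KRT4, KRT5, KRT6A and KRT14 had 0 or 1 count, KRT13 had 4 and KRT15 had 14. KRT7 was low with 4 counts and KRT20 silent with 2. In all, 5 of 13 keratins were on (38.5%), beside 61.2% of all protein-coding genes. Of 17 adhesion and junction genes 13 were on, led by the desmosome protein DSP (66.95 cRPKM), EPCAM (62.66), JUP (35.41), TJP1 (20.85) and F11R (17.86). CDH1, the E-cadherin of epithelial junctions, was barely on at 1.39 cRPKM (1.26 to 1.53), with 2.0, 1.64 and 1.1 in the other libraries. CDH2, the N-cadherin of neural and mesenchymal cells, stood at 57.15, 48.92, 53.99 and 54.55 cRPKM, 41.1 times CDH1 in the empty vector and 24.5 to 49.6 times over the 4 libraries.

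Of 13 epithelial regulators and surface markers 4 were on, ESRP2 (7.67), GRHL1 (4.78), MARVELD3 (2.97) and OVOL2 (1.02). GRHL2, which maintains epithelial junction genes, had 0 counts in all 4 libraries. The mesenchymal list was on at 12 of 20 (60%), close to the 61.2% of all protein-coding genes, led by FN1 (89.91 cRPKM), CDH2, SPARC (51.16), ACTA2 (36.27) and ZEB1 (8.76), a repressor of epithelial genes. Among genes of fibroblasts, COL1A2 and DCN had 1 count and FAP 0, although COL1A1 was on at 3.31. FN1 had the widest range of the 5 highest members, at 89.91, 45.45, 77.23 and 76.48 cRPKM, lowest in the MSI1 library.

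Progenitor genes were on at 14 of 20 (70%), not far from the 61.2% of all protein-coding genes. HMGA1, a chromatin protein of embryonic and tumour cells, was at 185.01 cRPKM, followed by SOX4 (52.40), and by the embryonic RNA-binding proteins IGF2BP1 (50.23), IGF2BP3 (35.95) and LIN28B (28.26). HMGA2 stood at 35.91. LIN28A, the paralog of LIN28B in stem cells, had 4 counts. SOX3 was just under the threshold at 0.99 cRPKM, and SOX1, FABP7 and HES5, markers of neural stem cells, had 0 counts. Of 12 pluripotency markers KLF4 (5.49) and SOX2 (4.92) were on. SOX2 was on at 4.28 to 5.97 in the 4 libraries, while NANOG had 8 counts and POU5F1 0.

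Photoreceptor genes had a larger silent share than the neuronal, neuroendocrine, kidney, epithelial or splicing genes. Of 59 members 31 were silent (52.5%), against 21.7% of all protein-coding genes, and 7 were on (11.9%), against 61.2%. Phototransduction in rods runs from the pigment through a G protein to a phosphodiesterase and a cation channel. The cone pigments OPN1SW and OPN1LW had 0 counts. The rod and cone alpha subunits GNAT1 and GNAT2 had 0 and 27 counts, the arrestins SAG and ARR3 0 each, and the calcium sensor RCVRN 0. Across the 4 libraries SAG had 0, 0, 1 and 0 counts, and RCVRN 0, 1, 0 and 1. Neither reached 2 counts in any library. OPN1LW is nearly identical to OPN1MW, for which the file gives no value, so reads of either could be lost.

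Several of the photoreceptor members that were on are also used in other cells. GNB1 was the highest, at 163.10 cRPKM in the empty vector, 163.69 in MSI1, 168.40 in SRRM3 and 164.05 in SRRM4. Its 4 levels were nearly equal, and it stood 120 times above GNB3, the cone beta subunit, which was on at 1.36. UNC119, a carrier of lipid-modified proteins, was at 36.50, RPGR, a protein of the cilium, at 7.62, and PROM1, a membrane protein of discs and of stem cells, at 4.10. THRB (2.17), a thyroid hormone receptor that sets cone type, and CDHR1 (1.77), a disc cadherin, were the others. Of 11 transcription factors THRB alone was on. CRX, the main photoreceptor factor, had 2 counts, 4, 3 and 2 in the 4 libraries. NRL, which sets rod fate, was low at 0.53 cRPKM with 25 counts, and RAX, an eye-field factor, at 0.50. Of 21 genes of outer segment, ribbon synapse and retinal disease 11 were silent, PRPH2, ABCA4, RP1, IMPG1 and EYS among them, with 0 to 2 counts. The 17 silent photoreceptor genes with a promoter window had a median of 3 CpG, the median of all silent genes, and SAG is one of them.

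The splicing machinery was present almost whole. Of 109 splicing regulators 92 were on (84.4%) and 5 silent (4.59%), beside 61.2% and 21.7% of all protein-coding genes. The 109 had a median of 43 cRPKM, and together they took 2.71% of the counts. All 14 SR proteins and TRA2 genes were on, led by SRSF1 (207.26 cRPKM), SRSF9 (188.13), SRSF2 (183.94), SRSF3 (139.58) and SRSF7 (113.25), the family that binds exonic enhancers. All 18 spliceosome and RBM genes were on, from SNRPB (494.69), an Sm ring protein, and PRPF8 (242.61) to RBM15 (6.27). U2AF1, which reads the 3′ splice site, was listed at 136.00 cRPKM from 895 counts. Its implied length is under 500 bases, and a near-identical copy lies in this build, so its level is less certain. Of 32 hnRNPs and general regulators 31 were on, led by HNRNPA2B1 (527.38), HNRNPK (386.43), HNRNPA3 (378.94), HNRNPC (319.80) and NONO (297.92), and PCBP3 was low at 0.48. Of 7 kinases of SR proteins 6 were on, SRPK1 (82.16) highest, and SRPK3, the muscle form, had 7 counts.

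The regulators tied to neurons and other tissues were split. Of 28 tissue-restricted regulators 15 were on (53.6%) and 5 silent (17.9%), both somewhat under the 61.2% and 21.7% of all protein-coding genes. KHDRBS1 (123.24 cRPKM), the ubiquitous Sam68, ELAVL1 (44.15), RBFOX2 (32.49), RBM38 (22.71) and CELF1 (19.97) were highest, with QKI at 18.26, CELF2 at 13.71 and MBNL1 at 13.29. In the RBFOX, ELAVL and CELF families a widely used member was on and most neuronal members were not. RBFOX2 stood at 32.49, 30.30, 33.45 and 27.99 cRPKM in the 4 libraries, while RBFOX1 had 0 counts in each and RBFOX3 12, 20, 9 and 11. ELAVL1 was on, while ELAVL3 had 1 count and ELAVL4 7, although ELAVL2, also neuronal, was on at 7.13. NOVA1 had 0 counts and NOVA2 was low at 0.27, and KHDRBS2 and A1CF had 0. ESRP2 was on at 7.67 cRPKM, while ESRP1, the main epithelial form, and RBM24, a muscle factor, were just under the threshold at 0.84 each. ESRP1 read 0.84, 1.17, 1.30 and 0.72 in the 4 libraries, so it was on in MSI1 and SRRM3 only.

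PTBP1 and PTBP2 lay far apart. PTBP1, which represses neuronal exons outside neurons (ENSG00000011304, chromosome 19, 797075 to 812327), stood at 171.18 cRPKM in the empty vector, 168.24 in MSI1, 187.82 in SRRM3 and 191.49 in SRRM4, at rank 353. PTBP2, its neuronal form (ENSG00000117569, chromosome 1, 96721665 to 96823738), stood at 1.18, 1.18, 1.05 and 1.23 cRPKM, just over the threshold. The pair was stable in all 4 libraries, with PTBP1 145 times PTBP2 in the empty vector and 143 to 179 times over the 4. PTBP3 was at 12.72.

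**Figure D5:**
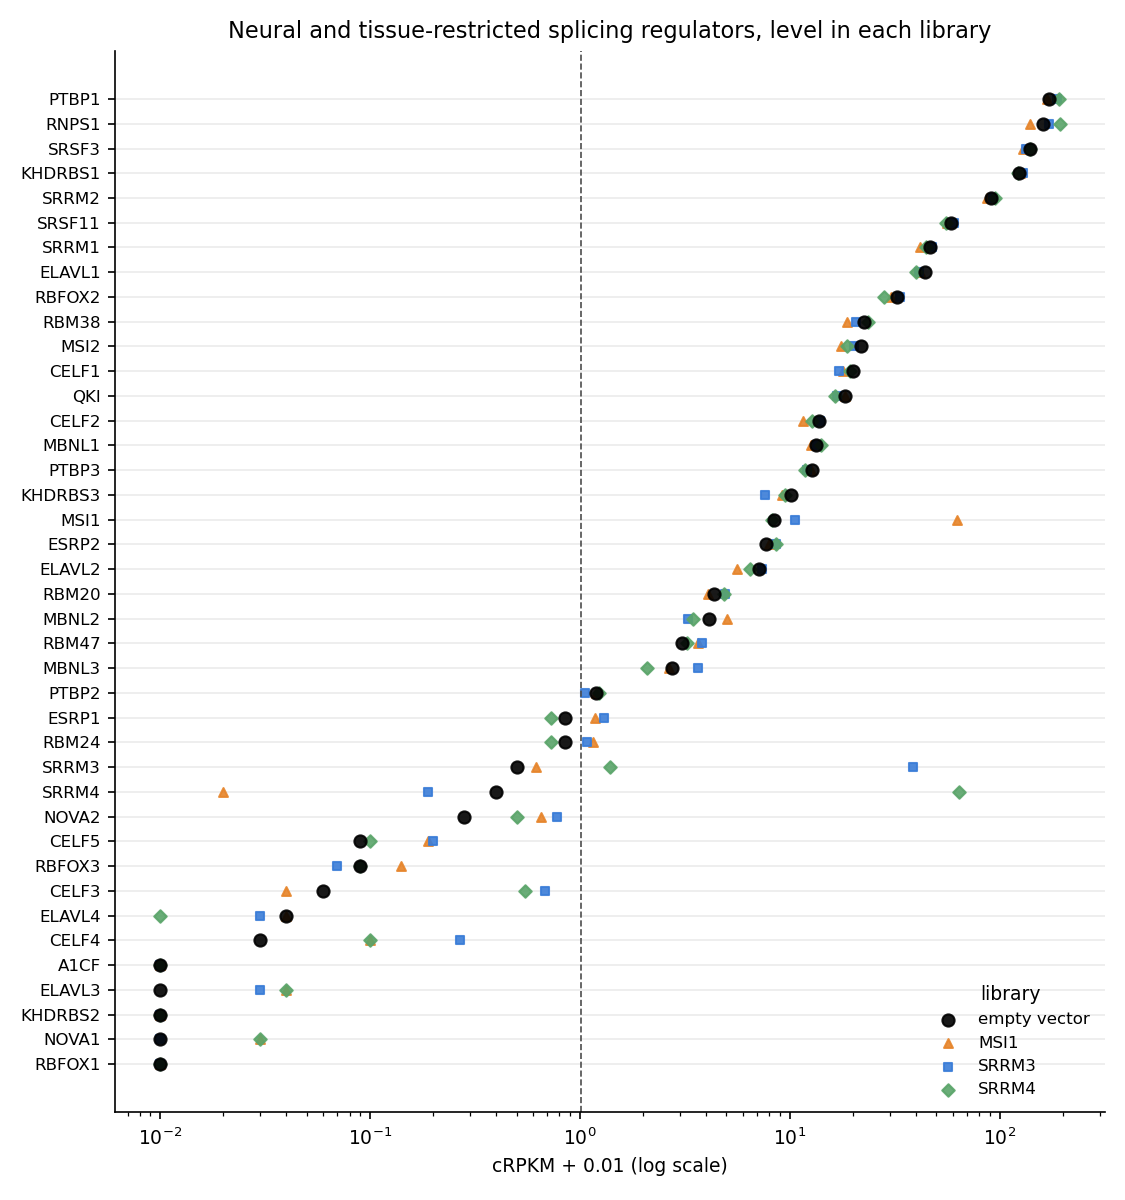
Level of neural and tissue-restricted splicing regulators (horizontal axis, cRPKM plus 0.01, log scale) with 1 row per gene and 1 symbol per library, large black circles for the empty vector. The symbols of most genes overlap, while MSI1, SRRM3 and SRRM4 are far to the right in the library that expresses each, and the black circle of SRRM4 lies to the right of its MSI1 and SRRM3 symbols.

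Both Musashi genes were on without a Musashi transgene. MSI2 (ENSG00000153944, chromosome 17, 57255851 to 57684685) stood at 21.78 cRPKM (21.3 to 22.2, 8540 counts, rank 3752), with 17.54 in MSI1, 20.21 in SRRM3 and 18.71 in SRRM4, highest in the empty vector. MSI1 (ENSG00000135097, chromosome 12, 120341330 to 120369180) stood at 8.38 cRPKM (7.96 to 8.81, 1522 counts), 62.43, 10.56 and 8.19 in the same order, high only in the library that expresses it as a transgene. MSI2 was therefore 2.6 times MSI1 in the empty vector and 0.281 times it in the MSI1 library.

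SRRM3 and SRRM4 were low and not silent. SRRM3 (ENSG00000177679, chromosome 7, 76201900 to 76287288) had 109 counts in the empty vector at 0.49 cRPKM (0.402 to 0.591), 138 counts in MSI1, 8634 in SRRM3 and 298 in SRRM4. SRRM4 (ENSG00000139767, chromosome 12, 118981495 to 119163051) had 201 counts in the empty vector at 0.39 cRPKM (0.338 to 0.448), 6 in MSI1, 95 in SRRM3 and 32240 in SRRM4. The empty-vector library is thus the highest for SRRM4 of the 3 lines without that transgene. Scaled to library size, it exceeded the MSI1 library 34 times (counting interval 15.3 to 93.7) and the SRRM3 library 2.14 times (1.67 to 2.77). These intervals compare libraries and not conditions, and what sets the difference was not tested. The related SRRM1 and SRRM2, parts of the general splicing machinery, were at 46.58 and 90.94 cRPKM, and SRSF11 and RNPS1, named partners of the microexon programme, at 58.75 and 160.29.

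Most baseline levels moved little between the lines. Of the protein-coding genes on in the empty vector 98.3% were on in all 4 libraries, and of the silent genes 87.4% were silent in all 4. The 11368 genes that were on with at least 100 counts had a median ratio of highest to lowest level of 1.18, and 10% of them exceeded 1.44. A ratio over 2 was found for 148 (1.3%). By contrast the class is least certain near the threshold, where 735 protein-coding genes lay between 0.5 and 1 cRPKM and 922 between 1 and 2. Of the 628 genes in all lists, 341 were on in the empty vector and 337 of these in all 4. The 4 that were not were DLG4, NLGN1 (1.09), OVOL2 and SNAI2 (1.28), all between 1.00 and 1.28 cRPKM in the empty vector. A further 27 members were low or silent in the empty vector and on in another library, CPLX2, CHGA, SCG3 and PCSK1 among them.

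The 10 genes with the widest range among those on with at least 100 counts fall outside the lists, apart from CHGB and MSI1. IFITM1, an interferon-induced membrane protein, read 3.02 cRPKM in the empty vector, 0.40 in MSI1, 5.45 in SRRM3 and 1.24 in SRRM4. IFIT1 (12.54, 1.51, 12.30 and 3.25) and IFIT2 (2.79, 0.34, 2.28 and 0.89), also interferon-induced, were likewise higher in the empty vector and SRRM3 than in MSI1 and SRRM4. CCN2 (16.94, 9.27, 3.31 and 30.52) and ANKRD1 (5.48, 14.43, 1.20 and 6.98), known targets of the YAP coactivator, were lowest in SRRM3. CASP4, LRATD1 and ACTBL2 complete the 10. For these genes the empty-vector level describes this library and does not serve as a level of the line.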

How the data were processed

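Per the labels, the libraries were polyA-selected stranded RNA-seq of 4 HEK293 lines, 1 library per group. The deposited files give an Ensembl gene ID, an RPKM value the authors call cRPKM and a whole-number read count. The submitters' processing notes name GRCh38 (hg38) as the build. Which aligner and annotation were used, and whether counting used strand, is not given in the sources here. Checked on 6322 genes, deposited RPKM equals count over library total and a gene-specific length, which differed by at most 0.0935% between libraries. For 199 protein-coding genes that were on, this implied length is under 500 bases.

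Of 41614 listed genes, 1426 have no value and were left out. Types and coordinates come from GENCODE 29, which held 39941 of the other 40188. CELF6 and EIF4A1 were not matched. A total of 7 protein-coding genes are on with 3 counts or fewer. In counts by class they count as on.

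With 1 library per group no test was run. Intervals are exact Poisson 95% intervals, or exact conditional ones for count ratios. The members and the 44 gene lists were chosen with earlier results of these data known. Named genes are the markers and induced genes, the 30 highest by cRPKM and by counts, and for each list up to 5 highest, up to 5 silent and those next to 1 cRPKM, with the 10 most variable genes and those with a printed window; others were chosen after their values were seen. Some list members are counted but not reported here by name. Alternatives were other thresholds, TPM, protein-coding genes only and each other library. Scripts were tested on simulated data and used Python 3.11.15 with pandas 2.3.3, numpy 2.4.6, matplotlib 3.10.9 and scipy 1.17.1.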

Additional observations from a re-analysis of the deposited data

How the results depend on the processing

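The counts of genes and of neuronal, neuroendocrine, kidney, epithelial, photoreceptor and splicing members that were on stayed within 1.5 times the reported value at 0.5 cRPKM, at 2 cRPKM, at 1 TPM, equal to 0.448 cRPKM and in each other library. Neuronal members on numbered 44 to 62 over these settings, photoreceptor members 5 to 10 and splicing regulators 91 to 96. Silent genes numbered 21610, and 4093 when only protein-coding genes were counted. The 30 genes with most counts took 8.32% of counts, and 8.35% without mitochondrially encoded genes. The 30 highest by counts held 8.72% of the MSI1 library, 8.59% of SRRM3 and 8.54% of SRRM4. Ranked by cRPKM instead, the 30 highest genes, a different set, took 13.3% of the summed cRPKM. That share differs from 8.32% both in the genes taken and in the division by length. For the other libraries the cause was not tested. No paired analysis was possible because each group has 1 library. No group can be described without its only library. Depth limits the silent class: 3 counts are 0.0483 CPM, and genes of short implied length can miss counts.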

Other observations

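HOX genes, which set position along the body axis, were read as a family after the lists had been examined. Of 39 with a value 34 were on (87.2%), beside 61.2% of all protein-coding genes, and HOXB1 with 2 counts was silent. All 11 genes of cluster A were on, 9 of 10 in cluster B, 6 of 9 in cluster C and 8 of 9 in cluster D. Paralog groups 9 to 11 were highest, with a median of 21.7 cRPKM against 4.65 for groups 1 to 4, 6.1 for groups 5 to 8 and 7.85 for groups 12 and 13. HOXB9 (44.95 cRPKM), HOXA10 (39.34) and HOXA9 (31.05) led. The low members were HOXC5 (0.40), HOXC11 (0.72), HOXC12 (0.09) and HOXD12 (0.22). HOXD11 stood 36.2 times above HOXC11 of the same paralog group, and 27.8 to 36.2 times over the 4 libraries.

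Other large families, also chosen after the values were seen, lay at the far ends. Of 341 olfactory receptor genes 333 were silent and OR7E24 was on, at 1.02 cRPKM. None of 91 keratin-associated protein genes and none of 28 beta-defensin genes was on. Of 501 genes with a ZNF symbol, mostly zinc finger repressors, 398 were on (79.4%) and 28 silent.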
